A study of Mus musculus with 6 samples.

Results

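Translation initiation factors are the proteins that bring the small ribosomal subunit, the initiator transfer RNA and a messenger RNA together and set the ribosome on a start codon. Their genes were taken from the deposited expression table by symbol, as the rows that start with Eif and a digit from 1 to 6 and are not marked as pseudogene copies. This gave 70 genes of the 38715 in the table, and 8 rows with a pseudogene suffix were left out. Of the 70, 52 had a mean of at least 1 RPKM (reads scaled to gene length and library size) in at least 1 group and were tested. These 52 passed that level in both groups. The other 18 were too low for a test and are given as values.

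The study sequenced messenger RNA libraries made from mouse testis, 3 titled Control and 3 titled Middle. The series' design text names control mice and MES-exposed mice, and the Middle libraries were read as exposed since no other title is left for that group. The series' title places the exposure in early life. Strain, genotype, age at sampling and dose are not given in the sources read for this comparison. Nothing in the labels ties each library to an animal of its own, so the p-values reflect the spread of these libraries alone, which may be technical.

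In eukaryotic initiation, eIF1 and eIF1A keep the small subunit open for scanning, and eIF2 carries the initiator transfer RNA in a complex with GTP. eIF5 triggers GTP hydrolysis on eIF2, eIF2B recharges eIF2 with GTP, and 4 kinases (the products of Eif2ak1 to Eif2ak4) block that recharging by phosphorylating the alpha subunit of eIF2 under stress. eIF3 is the large scaffold on the small subunit, and the eIF4 group binds the cap and unwinds the leader of the message. In the testis, translation is under strong control because late spermatids store messages made earlier, and several factors have paralogs there, among them eIF2 gamma on the X and the Y chromosome.

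eIF1 and eIF5 act when the scanning ribosome meets a start codon. Translation of Eif1 is known to depend on its own start context, so the contexts of selected members are shown first. Each line gives, 5′ to 3′, 9 bases before the start codon, the start codon in capitals and 1 base after it. The bases come from 1 GENCODE M21 coding transcript per gene, chosen by its rank as principal isoform, then its support level, then its length. The first 4 are Eif1 and its paralog, Eif5, and Eif4g2 with its unusual start codon, the next 5 are paralogs compared below, and the last 3 are eIF3 subunits, of which Eif3b has neither favoured base.
Eif1: tcgtatcgtATGt
Eif1b: tagtgtcgcATGt
Eif5: taagccaaaATGt
Eif4g2: gccgccaaaGTGg
Eif2s3x: ccgagcaagATGg
Eif2s3y: gtgagcaagATGg
Eif4a1: ctaaggatcATGt
Eif4a2: tttcggatcATGt
Eif4a3: atccggatcATGg
Eif3a: accgtcaagATGc
Eif3f: ctcggcaagATGg
Eif3b: cgcgggcccATGc
Eif1 and Eif1b both carry a pyrimidine 3 bases before the start codon and no G directly after it. Weak contexts of this kind are known to make Eif1 translation sensitive to the level of eIF1 protein itself. Only 3 of 55 members with a matched coding transcript (5.45%) lacked both a purine at that place and a G after the start codon, namely Eif1, Eif1b and Eif3b, against 7.39% of 20324 coding genes. A purine there was present in 49 of the 55 (89.1%, against 84.6% of all), and a G after the start codon in 28 (50.9%, against 49.6%). Eif4g2 was the only 1 of the 55 whose annotated start was not ATG, which 11 of the 20324 genes share. Eif2s3x and Eif2s3y were identical over the 7 bases next to the start codon, and Eif4a1, Eif4a2 and Eif4a3 over 5. Leaders of the 55 had a median length of 126 bases, against 167 over all coding genes, and shorter leaders leave less room for an ATG. At least 1 ATG lay upstream of the start codon in the leaders of 19 of the 55 (34.5%), against 54.0% of all coding genes. The Eif5 leader, 626 bases long, held 5 of them, and upstream ATGs in Eif5 are known to lower its translation. These are counts of letters in the annotation and were not tested.

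The libraries held 38820385 to 58389391 reads over genes, and the tested member with the fewest reads in a library had 63 there. Read numbers of replicates differed beyond sampling noise, with a chi-square per degree of freedom of 5.85 to 31.3. Testis germ cell and Sertoli cell markers were present in all libraries, the 2 of 6 epididymis markers that have a row in the table summed to at most 0.0402 RPKM, and the endothelial markers to at most 2.04 RPKM. Summed levels of the 10 round spermatid markers ran from 704.5 to 748 RPKM in Control and from 588 to 646 in Middle, with 8 of 10 below 0 in log2 fold change. Of the 10 elongating spermatid markers 8 lay below 0 (median -0.16, and -0.17 without Middle replicate 1), 5 of them at an unadjusted p under 0.05. Their summed levels overlapped between groups, at 30148.5 to 33310.1 RPKM in Control and 28378.7 to 30856.4 in Middle. The 8 tested Sertoli cell markers all had log2 fold changes above 0, and their list summed to 186 to 190 RPKM in Control and 198 to 208 in Middle. Of 87 tested ribosomal protein genes 86 lay above 0 (median log2 fold change 0.25, and 0.15 without Middle replicate 1). Of 30 tested mitochondrially encoded genes 26 lay above 0 (median 0.43, and 0.32 without Middle replicate 1), and their list summed to 9360 to 11809 RPKM in Control and 13154 to 17853 in Middle. In this list only mt-Nd3 had an adjusted p under 0.05. It went the other way, lower in Middle (limma log2 fold change -1.16, adjusted p = 0.0267). Middle replicate 1 stood apart from the other libraries in its relation to GC content (Spearman correlation of a gene's deviation from its mean with GC, 0.446, against 0.028 and -0.071 in the other Middle libraries and -0.294 to -0.216 in Control, across 14003 genes that are not independent). The part of these shifts in the results on the initiation factors was not tested, and with whole testis fewer cells of a type and less RNA per cell cannot be told apart.

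No initiation factor gene differed between Middle and Control beyond the adjusted threshold. By limma on log2(RPKM + 1), with Benjamini-Hochberg adjustment over all 15040 tested genes, 0 of the 52 had an adjusted p under 0.05, where 8 of all genes (0.0532%) did (0.00665% higher and 0.0465% lower), and the smallest adjusted p of a member was 0.178. At an unadjusted p under 0.05 there were 13 of 52 (25%), against 20.7% of all genes, with 10 higher in Middle (background 11.7%) and 3 lower (background 9.02%). Leaving out Control replicate 1 gave 3 in place of 13, leaving out Middle replicate 1 gave 7 and leaving out Middle replicate 2 gave 20. The count over all genes moved the same way, from 3116 of 15040. It was 1444 of 15076, 2457 of 15065 and 3922 of 15067 in that order. The members' median log2 fold change was 0.04, against 0.03 for all genes, and 30 of 52 lay above 0 (57.7%, against 55.9%). In 26 of 52 (50%) the 3 Middle libraries lay wholly above or wholly below the 3 Control libraries, against 29.3% of all genes, with 18 higher (34.6%, against 17.9%) and 8 lower (15.4%, against 11.4%). The 18 that were higher held 9 of 13 tested eIF3 subunits, 4 of 5 eIF2B subunits, Eif2a, Eif2d, Eif2ak1, Eif4a3 and Eif5a. The 8 that were lower were Eif3a, Eif3j1, Eif2s3y, Eif5, Eif4a2, Eif5a2, Eif4ebp1 and Eif4ebp3.

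**Figure D1:**
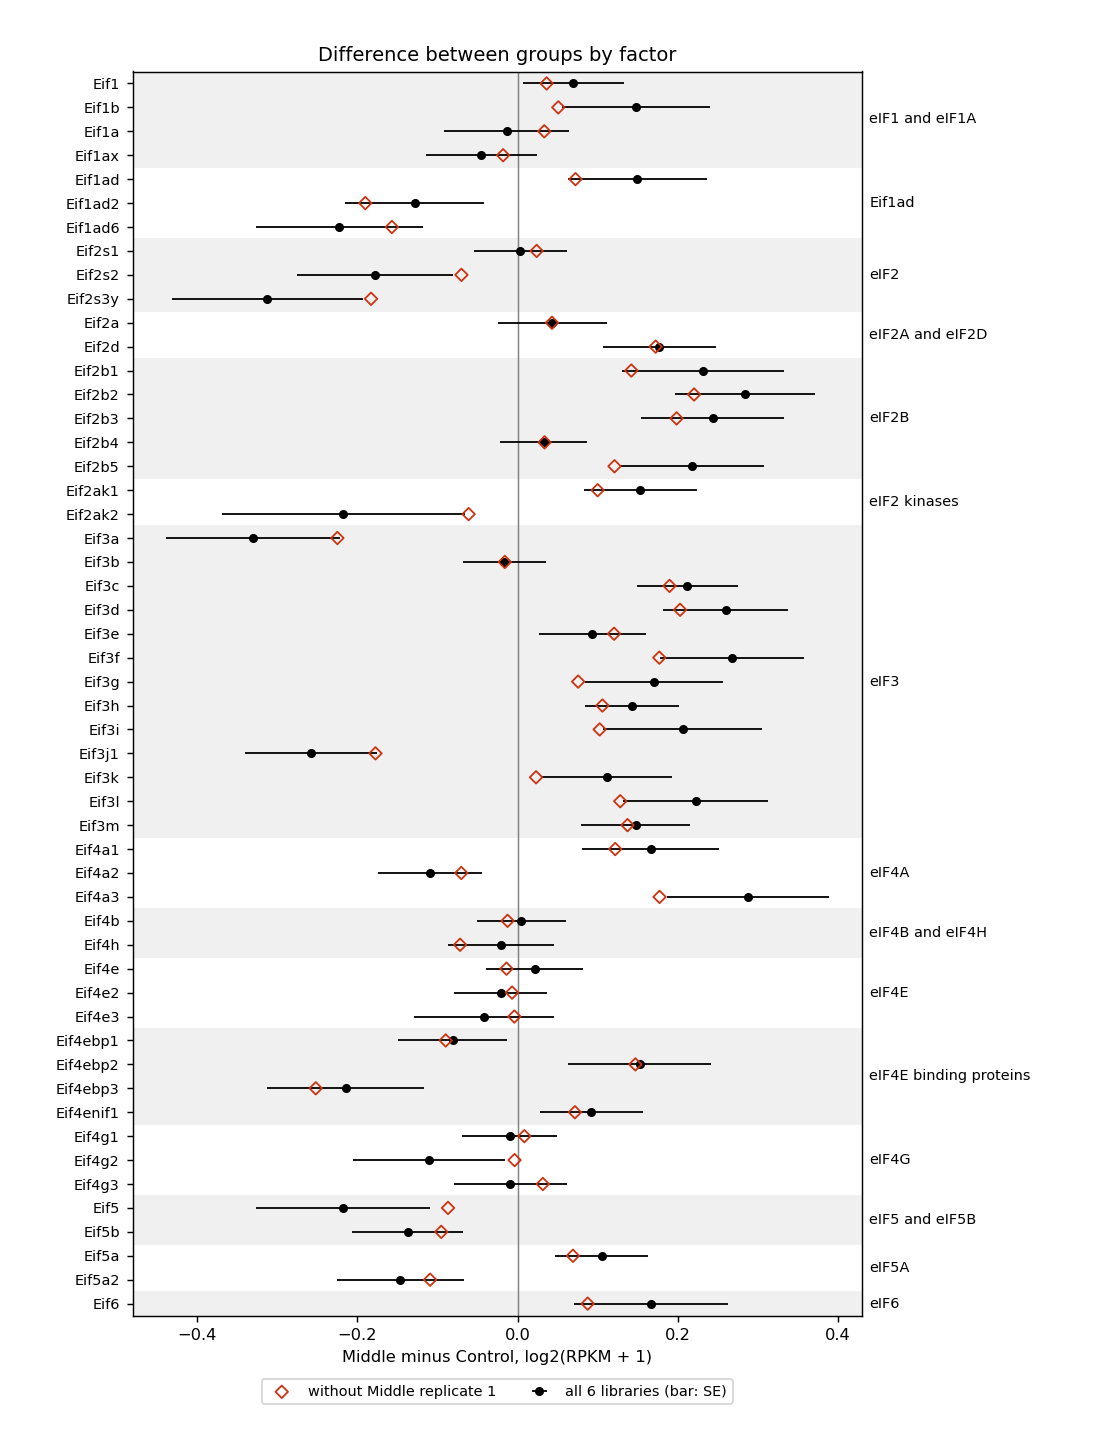
Log2 fold change of Middle over Control on the log2(RPKM + 1) scale for the 52 tested initiation factor genes, by factor. Filled points with bars are the limma estimate and its standard error from all 6 libraries, and open diamonds are the estimate without Middle replicate 1. Estimates run from -0.33 (Eif3a) to 0.29 (Eif4a3), and 42 of 52 lie nearer to 0 without that library.

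Most of these differences were smaller without Middle replicate 1. It was the Middle library farthest in the direction of the difference for 39 of 52 members (75%), against 58.0% of all genes. Without it, 42 of 52 differences became smaller (80.8%, against 64.6% of all genes), and the median absolute log2 fold change was 0.09 in place of 0.15. The sign stayed the same in 47 of 52. Without Middle replicate 1, 53 members were tested, none with an adjusted p under 0.05 (1 of 15065 genes, 0.00664%) and 7 with an unadjusted p under 0.05 (13.2%, against 16.3% of all genes). Higher among these 7 were Eif3c, Eif3d, Eif3f, Eif2b2 and Eif4a3 (background 8.52%), and lower were Eif3a and Eif3j1 (background 7.79%). Groups did not overlap for 28 of the 53, 18 higher (background 22.7%) and 10 lower (background 14.8%), against 37.4% of all genes in that smaller comparison.

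Levels of the factors spanned more than the differences between groups did. Eif3c, which encodes a core eIF3 subunit, had the highest mean, 287 RPKM over the 6 libraries, followed by Eif3g with 199.7, Eif3b with 172 and Eif3h with 159.7. The lowest mean of a tested member was that of Eif4e3, a cap-binding paralog, at 1.20 RPKM. The lowest of all members was Eif1ad8, which had 0, 2 and 0 reads in Control replicates 1 to 3 and 0, 0 and 0 in Middle replicates 1 to 3. RPKM divides by gene length, here all annotated exon bases of a gene, so this ranking also depends on the annotation. For Eif3e that length is 6719 bases beside a coding sequence of 1335, and for Eif3h 1612 beside 1056. Below, 3 values of a group are those of replicates 1, 2 and 3 in that order, and coordinates are on GRCm39.

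**Figure D2:**
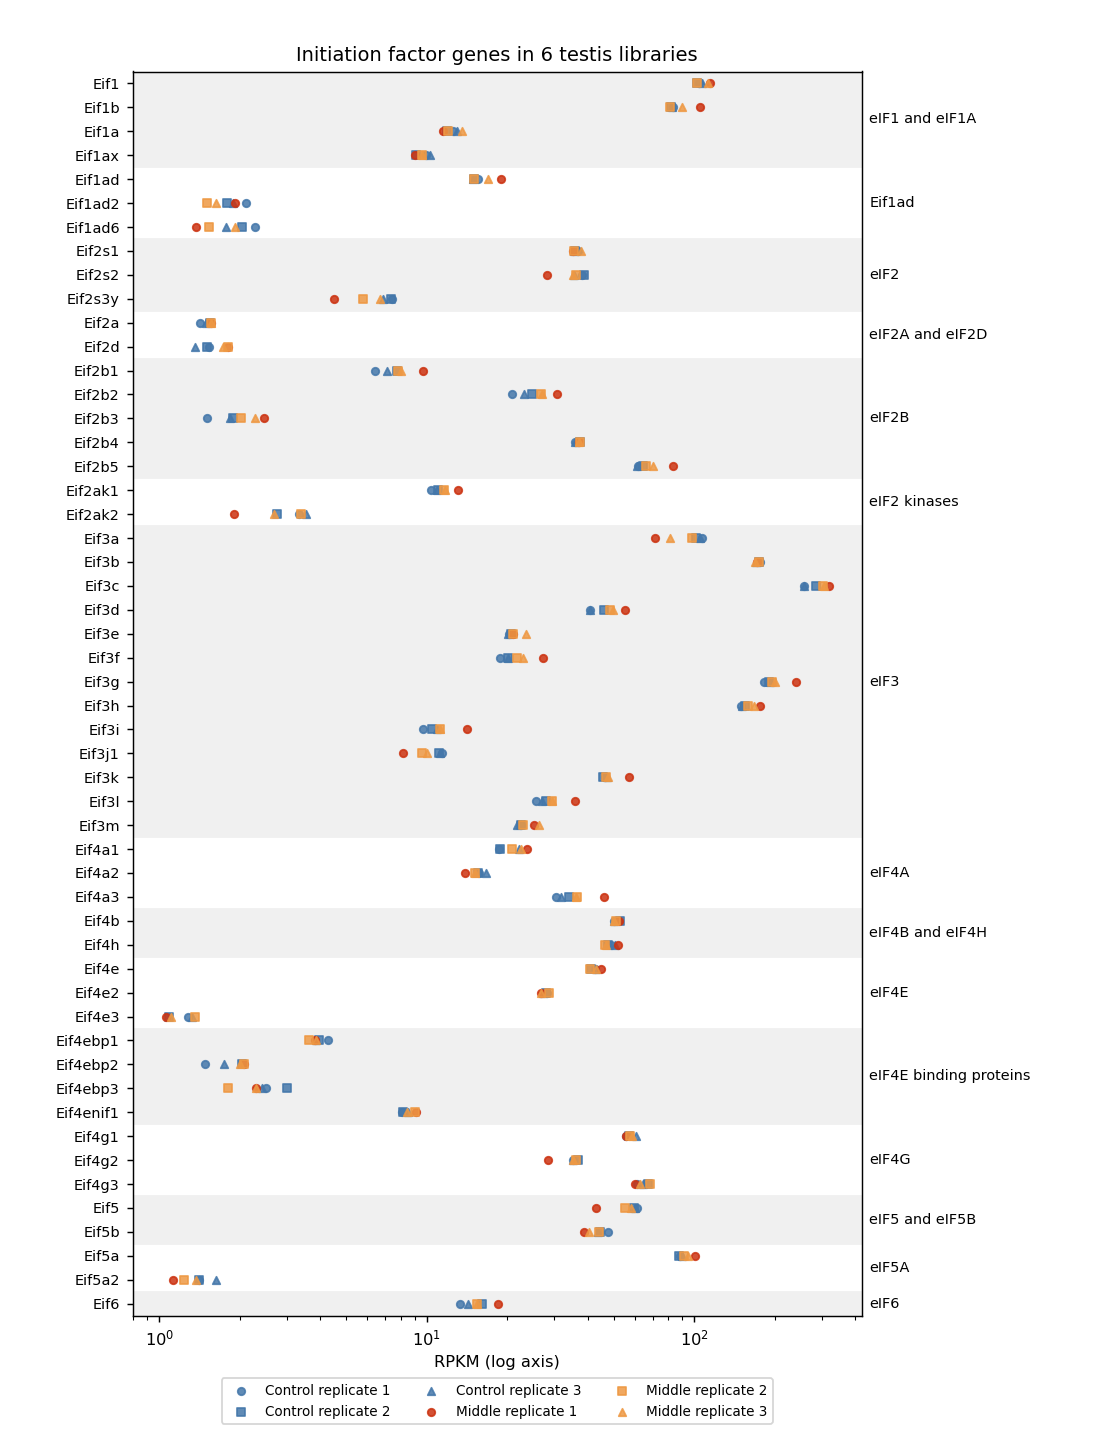
RPKM on a log axis of the 52 tested initiation factor genes in each of the 6 libraries, grouped by factor. Points of the 2 groups lie close together for most genes, and levels run from about 1 RPKM (Eif4e3, Eif5a2) to 256 to 318 RPKM (Eif3c).

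The groups overlapped in all 4 genes of eIF1 and eIF1A. Eif5, which also acts in start codon selection, is given with the last steps below. Eif1, the gatekeeper of start codon choice, was at 104, 102 and 106 RPKM in the Control libraries and 115, 102 and 112 RPKM in the Middle libraries (log2 fold change 0.07). Its paralog Eif1b, which encodes a nearly identical protein, was at 83.2, 81.6 and 82.5 RPKM in the Control libraries and 105, 80.8 and 90.3 RPKM in the Middle libraries. Eif1b lay above every Control library in 2 of 3 Middle libraries (limma log2 fold change 0.15 ± 0.093 SE, adjusted p = 0.373), and its difference was 0.051 without Middle replicate 1. Of the eIF1A genes, which encode the partner of eIF1 on the scanning subunit, the X-linked Eif1ax was at 9.96, 9.08 and 10.3 RPKM in the Control libraries and 9.04, 9.61 and 9.63 RPKM in the Middle libraries. Eif1a was at 12.5, 11.9 and 13 RPKM in the Control libraries and 11.5, 12 and 13.6 RPKM in the Middle libraries, and in both eIF1A genes the groups overlapped.

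The Eif1ad genes encode proteins with an eIF1A-like domain and are a family of 13 in the table, 12 of them in a run of copies on chromosome 12. Eif1ad itself was at 15.5, 15 and 14.9 RPKM in the Control libraries and 18.9, 15 and 17 RPKM in the Middle libraries (log2 fold change 0.15, and 0.072 without Middle replicate 1). Eif1ad6 was at 2.29, 2.04 and 1.78 RPKM in the Control libraries and 1.37, 1.53 and 1.92 RPKM in the Middle libraries (limma log2 fold change -0.22 ± 0.10 SE, adjusted p = 0.264). Its highest Middle value lay above its lowest Control value. Eif1ad2 was at 1.93 ± 0.157 RPKM across the Control libraries and 1.68 ± 0.211 RPKM across the Middle libraries (SD over n = 3). The other 10 copies had 0 to 76 reads in a library, and reads of such near-identical copies may be split between them, so the family's values are uncertain.

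In the eIF2 complex, which delivers the initiator transfer RNA, the Y-linked gamma subunit had the most negative difference. Eif2s3y (chromosome Y, 1010543 to 1028847) was at 7.39, 7.36 and 6.85 RPKM in the Control libraries and 4.52, 5.76 and 6.71 RPKM in the Middle libraries. The highest Middle value was below the lowest Control value, and the Middle mean was 0.787 times the Control mean (limma log2 fold change -0.31 ± 0.12 SE, adjusted p = 0.213, and -0.18 without Middle replicate 1). Its X-linked partner Eif2s3x was too low for the test, at 0.893, 0.872 and 1.04 RPKM in the Control libraries and 0.892, 0.962 and 1.05 RPKM in the Middle libraries, and the groups overlapped. Eif2s1, the alpha subunit that the stress kinases phosphorylate, was at 36.7, 35.9 and 35.5 RPKM in the Control libraries and 35.1, 35.5 and 37.8 RPKM in the Middle libraries (log2 fold change 0.0033, of the opposite sign under both other scalings). Eif2s2, the beta subunit, was at 38.2, 38.6 and 35.5 RPKM in the Control libraries and 28.2, 36.1 and 35.1 RPKM in the Middle libraries. Its low mean in Middle came largely from Middle replicate 1 (limma log2 fold change -0.18 ± 0.10 SE, adjusted p = 0.32, and -0.07 without that library).

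Eif2a and Eif2d, whose products can deliver transfer RNA to the ribosome without eIF2, were low genes. Eif2d was at 1.53, 1.51 and 1.36 RPKM in the Control libraries and 1.8, 1.81 and 1.74 RPKM in the Middle libraries, with every Middle library above every Control library (limma log2 fold change 0.18 ± 0.07 SE, adjusted p = 0.224). Middle replicate 1 did not set this difference, which was 0.17 without it. Eif2a was at 1.49 ± 0.064 RPKM across the Control libraries and 1.56 ± 0.00411 RPKM across the Middle libraries (SD over n = 3), also without overlap but with a log2 fold change of 0.043.

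The 5 subunits of eIF2B, the exchange factor that recharges eIF2 and on which its regulation by phosphorylation acts, all had log2 fold changes above 0, with Eif2b4 at -0.01 under upper-quartile scaling, and 4 of 5 did not overlap. The median of the 5 was 0.23, and 0.14 without Middle replicate 1. Eif2b2, the beta subunit (chromosome 12, 85266255 to 85273402), was at 20.8, 24.8 and 23.1 RPKM in the Control libraries and 30.7, 26.7 and 26.9 RPKM in the Middle libraries (limma log2 fold change 0.28 ± 0.087 SE, adjusted p = 0.178). Eif2b3, the gamma subunit, was at 1.51, 1.89 and 1.85 RPKM in the Control libraries and 2.46, 2.02 and 2.28 RPKM in the Middle libraries (limma log2 fold change 0.24 ± 0.09 SE, adjusted p = 0.202). In both genes the lowest Middle library lay above the highest Control library. Eif2b5, the catalytic epsilon subunit, was at 61.6, 64.3 and 61.1 RPKM in the Control libraries and 83.3, 66 and 69.8 RPKM in the Middle libraries (limma log2 fold change 0.22 ± 0.089 SE, adjusted p = 0.23), and without Middle replicate 1 its difference was 0.12. Eif2b1, the alpha subunit, was at 6.39, 7.76 and 7.08 RPKM in the Control libraries and 9.7, 7.78 and 7.99 RPKM in the Middle libraries (log2 fold change 0.23). Its highest Control library and lowest Middle library, 7.76 and 7.78 RPKM, were nearly equal. Eif2b4, the delta subunit, was the exception at 36.3 ± 0.936 RPKM across the Control libraries and 37.2 ± 0.0845 RPKM across the Middle libraries (SD over n = 3), with a log2 fold change of 0.033 that turned to -0.042 when each library's GC trend was removed. The higher eIF2B values stood in the same libraries as the higher ribosomal protein values above, whose part was not tested.

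**Figure D3:**
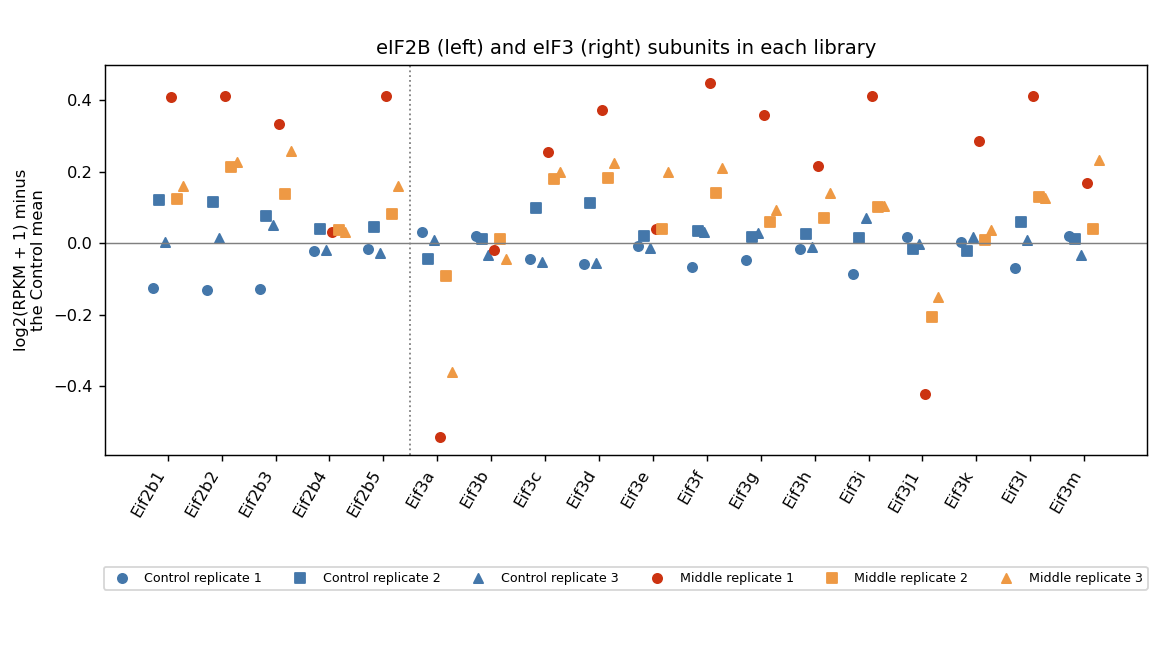
Difference of each library from the Control mean in log2(RPKM + 1), for the 5 eIF2B subunits (left) and the tested eIF3 subunits (right), with Control and Middle libraries as separate points and Middle replicate 1 marked. Eif3a and Eif3j1 lie below 0 in all 3 Middle libraries, while Eif3c, Eif3d, Eif3f and Eif2b2 lie above 0 in all 3.

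Among the eIF2 kinases no adjusted p was under the threshold. Eif2ak1, which encodes the heme-regulated kinase HRI, was at 10.4, 11 and 10.9 RPKM in the Control libraries and 13.1, 11.6 and 11.7 RPKM in the Middle libraries (limma log2 fold change 0.15 ± 0.07 SE, adjusted p = 0.257). Every Middle library lay above every Control library, and the difference was 0.10 without Middle replicate 1. Eif2ak2, which encodes the double-stranded RNA sensor PKR, was at 3.34, 2.76 and 3.53 RPKM in the Control libraries and 1.9, 3.39 and 2.68 RPKM in the Middle libraries, and its libraries overlapped (limma log2 fold change -0.22 ± 0.15 SE, adjusted p = 0.416). Without Middle replicate 1 its difference was -0.061. Eif2ak3, which encodes the endoplasmic reticulum kinase PERK, was at 0.292, 0.426 and 0.359 RPKM in the Control libraries and 0.336, 0.47 and 0.382 RPKM in the Middle libraries. Eif2ak4, which encodes the amino acid sensor GCN2, was at 0.452, 0.351 and 0.404 RPKM in the Control libraries and 0.49, 0.374 and 0.387 RPKM in the Middle libraries. Both were too low for the test and overlapped.

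The subunits of eIF3 did not all lie on one side. Of the 13 tested subunits 10 had log2 fold changes above 0, 9 of them without overlap, and 3 lay below 0, of which Eif3a and Eif3j1 did not overlap. The median was 0.15, and 0.11 without Middle replicate 1. Eif3c (chromosome 7, 126145627 to 126165583) was at 258, 285 and 256 RPKM in the Control libraries and 318, 302 and 306 RPKM in the Middle libraries. It was the higher member with the smallest p (limma log2 fold change 0.21 ± 0.063 SE, adjusted p = 0.178), and without Middle replicate 1 its difference was 0.19. Eif3d, a subunit that can itself bind the cap, was at 40.7, 45.9 and 40.8 RPKM in the Control libraries and 55.3, 48.3 and 49.7 RPKM in the Middle libraries (limma log2 fold change 0.26 ± 0.078 SE, adjusted p = 0.178). Of its exon bases 43.3% are shared with the overlapping gene Gm17638, and reads from those bases may belong to either gene. Eif3f, which carries an MPN domain, was at 18.7, 20.2 and 20.1 RPKM in the Control libraries and 27.2, 21.8 and 22.9 RPKM in the Middle libraries (limma log2 fold change 0.27 ± 0.089 SE, adjusted p = 0.186), and its Middle replicate 1 value exceeded the other Middle values by more than these exceeded Control.

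Eif3a, the largest eIF3 subunit and the backbone of the complex (chromosome 19, 60749555 to 60779096), had the most negative difference on the log2(RPKM + 1) scale, while the ratio of Middle to Control means, 0.8, was lower for Eif2s3y (0.787) and Eif1ad6 (0.789). It was at 107, 101 and 105 RPKM in the Control libraries and 71.3, 97.9 and 81.1 RPKM in the Middle libraries, and the highest Middle library lay below the lowest Control library. It averaged 104 ± 2.84 RPKM across the Control libraries and 83.4 ± 13.4 RPKM across the Middle libraries (SD over n = 3), with a limma log2 fold change of -0.33 (SE 0.11, adjusted p = 0.186), and the difference was -0.22 without Middle replicate 1. Eif3j1, a loosely bound subunit that helps to accommodate and release messages, was at 11.4, 11.1 and 11.2 RPKM in the Control libraries and 8.14, 9.61 and 10.03 RPKM in the Middle libraries (limma log2 fold change -0.26 ± 0.082 SE, adjusted p = 0.182). It too was lower in every Middle library than in every Control library, and its difference was -0.18 without Middle replicate 1. Of the exon bases of Eif3j1 20.2% are shared with Gm56114 and Spg11, and reads from those bases may belong to any of these genes. Eif3j2, the near copy of Eif3j1, was too low for the test at 0.865, 0.821 and 0.964 RPKM in the Control libraries and 0.639, 0.685 and 1.07 RPKM in the Middle libraries.

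Set against the median of the 13 tested subunits in the same library, Eif3a was at 2.62, 2.21 and 2.57 times that median in Control replicates 1 to 3 and at 1.29, 2.09 and 1.70 times in Middle replicates 1 to 3. The values did not overlap. Eif3j1 over the same median was at 0.266 ± 0.0199 across the Control libraries and 0.188 ± 0.0353 across the Middle libraries (SD over n = 3). Both ratios also move with the median itself, which was 42.4 ± 2.85 RPKM in Control and 49.9 ± 4.71 in Middle.

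Of the other tested eIF3 subunits 6 lay above Control without overlap and 2 overlapped. Eif3b, which organises the scanning complex with Eif3a, was at 173 ± 3.42 RPKM across the Control libraries and 172 ± 3.3 RPKM across the Middle libraries (SD over n = 3), with a log2 fold change of -0.016, and overlapped. Eif3e, Eif3g, Eif3h, Eif3i, Eif3l and Eif3m were the 6 without overlap, with log2 fold changes from 0.093 (Eif3e) to 0.22 (Eif3l). After removal of the GC trend, Eif3e was at 0.25 and Eif3m at 0.27, against 0.15 for Eif3m before. Eif3k was at 46.4 ± 0.634 RPKM across the Control libraries and 50.4 ± 5.6 RPKM across the Middle libraries (SD over n = 3) and overlapped, with Middle replicate 1 at 56.8 RPKM above the other libraries.

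Of the eIF4A helicases, which unwind message leaders, Eif4a3 had the most positive difference of the tested members on the log2(RPKM + 1) scale, while its ratio of Middle to Control means, 1.23, was below that of Eif2b3 (1.29). Eif4a3, whose product works in the exon junction complex rather than in cap-dependent initiation (chromosome 11, 119179189 to 119190915), was at 30.4, 33.9 and 31.6 RPKM in the Control libraries and 45.8, 36.3 and 36.2 RPKM in the Middle libraries (limma log2 fold change 0.29 ± 0.10 SE, adjusted p = 0.194). Without Middle replicate 1 its difference was 0.18, still with every Middle library above every Control library. Eif4a1, the main helicase of initiation, was at 18.7, 18.8 and 22 RPKM in the Control libraries and 23.8, 20.8 and 22.5 RPKM in the Middle libraries and overlapped (log2 fold change 0.17). Eif4a2, its close paralog, was at 15.6, 15.5 and 16.6 RPKM in the Control libraries and 13.9, 15.1 and 15.1 RPKM in the Middle libraries. The Middle values of Eif4a2 lay below the Control values, by a log2 fold change of -0.11 (adjusted p = 0.35, limma) that was -0.07 without Middle replicate 1 and -0.0022 with the GC trend removed. The copies Eif4a3l1 and Eif4a3l2 had at most 4 reads in a library, below the 6 reads that a count of 0 allows, and no fold is given. The helicase partner Eif4b was at 50.9 ± 1.56 RPKM across the Control libraries and 51.1 ± 1.12 RPKM across the Middle libraries (SD over n = 3), with a log2 fold change of 0.0046 that was negative under both other scalings. The other partner, Eif4h, was at 49 ± 1.5 RPKM across the Control libraries and 48.3 ± 3.09 RPKM across the Middle libraries (SD over n = 3), with a log2 fold change of -0.021.

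The cap-binding and scaffold genes of eIF4F were near Control. Eif4e, the cap-binding protein, was at 42.5, 41.2 and 42.8 RPKM in the Control libraries and 45, 40.8 and 42.7 RPKM in the Middle libraries (log2 fold change 0.021, and -0.02 under upper-quartile scaling). Eif4e2, whose product represses translation at the cap, was at 28.2, 27.9 and 27.3 RPKM in the Control libraries and 26.8, 28.6 and 26.7 RPKM in the Middle libraries. The germ-line paralog Eif4e1b was below the tested range at 0.116, 0.0911 and 0.103 RPKM in the Control libraries and 0.206, 0.171 and 0.0943 RPKM in the Middle libraries, and Eif4e3 was at 1.24 ± 0.129 RPKM across the Control libraries and 1.17 ± 0.16 RPKM across the Middle libraries (SD over n = 3). All 4 cap-binding genes overlapped between groups. Of the scaffolds, Eif4g1 was at 55.4, 57 and 60.5 RPKM in the Control libraries and 55.7, 57.5 and 58.4 RPKM in the Middle libraries and overlapped. Its paralog Eif4g3 was at 60.9, 67.4 and 64.1 RPKM in the Control libraries and 60.1, 68.4 and 62.8 RPKM in the Middle libraries, also with overlap. Eif4g2, which lacks the cap-binding part and starts at the GTG shown above, was at 35.1, 36.7 and 35.3 RPKM in the Control libraries and 28.3, 36.2 and 35.1 RPKM in the Middle libraries. Its difference of -0.11 rested on Middle replicate 1, without which it was -0.0038.

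The 4E-binding proteins, which compete with eIF4G for eIF4E when they are not phosphorylated, lay on both sides of 0. Eif4ebp1 was at 4.28, 3.95 and 3.87 RPKM in the Control libraries and 3.82, 3.62 and 3.84 RPKM in the Middle libraries, lower without overlap (log2 fold change -0.081). Eif4ebp2 was at 1.48, 2.05 and 1.75 RPKM in the Control libraries and 2.08, 2.08 and 2.01 RPKM in the Middle libraries and overlapped (log2 fold change 0.15). Eif4ebp3 was at 2.51, 2.99 and 2.42 RPKM in the Control libraries and 2.3, 1.82 and 2.31 RPKM in the Middle libraries (limma log2 fold change -0.21 ± 0.10 SE, adjusted p = 0.257). Its difference was not smaller without Middle replicate 1 (-0.25), but 67.3% of its exon bases are shared with Maskbp3. Reads from those bases may belong to either gene. Eif4enif1, which carries eIF4E into the nucleus and into granules, was at 8.25 ± 0.242 RPKM across the Control libraries and 8.86 ± 0.402 RPKM across the Middle libraries (SD over n = 3) and overlapped.

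The genes of the last steps lay slightly below Control, apart from Eif5a and Eif6. Eif5, the GTPase activator whose leader holds the upstream ATGs described above, was at 61, 59.6 and 59.8 RPKM in the Control libraries and 42.8, 55.2 and 57.9 RPKM in the Middle libraries. All Middle libraries were below all Control libraries (limma log2 fold change -0.22 ± 0.11 SE, adjusted p = 0.285), but the difference was -0.087 without Middle replicate 1. Eif5b, which joins the ribosomal subunits, was at 45.2 ± 1.9 RPKM across the Control libraries and 41.1 ± 2.76 RPKM across the Middle libraries (SD over n = 3) and overlapped. Eif5a, whose hypusine-bearing product helps elongation past difficult residues, was at 88.7, 87.6 and 89.7 RPKM in the Control libraries and 100.3, 91.2 and 95 RPKM in the Middle libraries (log2 fold change 0.10, adjusted p = 0.324, limma), higher without overlap, and at a log2 fold change of 0.044 with the GC trend removed. Its paralog Eif5a2 was at 1.41, 1.41 and 1.62 RPKM in the Control libraries and 1.13, 1.24 and 1.37 RPKM in the Middle libraries (log2 fold change -0.15, adjusted p = 0.315, limma), lower without overlap, and at -0.019 with the GC trend removed. Eif6, which keeps the large subunit from joining early, was at 14.5 ± 1.42 RPKM across the Control libraries and 16.4 ± 1.7 RPKM across the Middle libraries (SD over n = 3) and overlapped. The row Eif2c5 carries an older symbol of the Argonaute family, which is no initiation factor, and had 2 to 4 reads in a library.

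Ratios of paralogs within a library do not depend on its scaling, and 12 pairs were compared by an exact permutation test over libraries, two-sided, which with 3 against 3 libraries cannot go below 0.1. In 4 of the 12 pairs the groups did not overlap, each with an exact p = 0.1 and an adjusted p = 0.3 over the 12 pairs, so no pair passed. Pairs with the same denominator gene are not independent. Eif2s3y over Eif2s3x was 8.27, 8.44 and 6.59 in the Control libraries and 5.06, 5.99 and 6.42 in the Middle libraries. Eif4a2 over Eif4a1 was 0.838, 0.825 and 0.752 in the Control libraries and 0.582, 0.727 and 0.672 in the Middle libraries. Eif5a2 over Eif5a was 0.0159, 0.0161 and 0.0181 in the Control libraries and 0.0113, 0.0136 and 0.0144 in the Middle libraries. In these 3 the ratio was lower in every Middle library than in every Control library, with log2 differences of -0.41, -0.29 and -0.36. Without Middle replicate 1 these were -0.32, -0.20 and -0.26. Eif4ebp2 over Eif4ebp1 was 0.346, 0.517 and 0.451 in the Control libraries and 0.544, 0.574 and 0.523 in the Middle libraries, a log2 difference of 0.34 with or without that library and of 0.18 without Control replicate 1. With each library's GC trend removed, the log2 differences were -0.20 for Eif4a2 over Eif4a1, -0.06 for Eif5a2 over Eif5a and 0.17 for Eif4ebp2 over Eif4ebp1, and Eif2s3x was too low to enter that calculation.

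**Figure D4:**
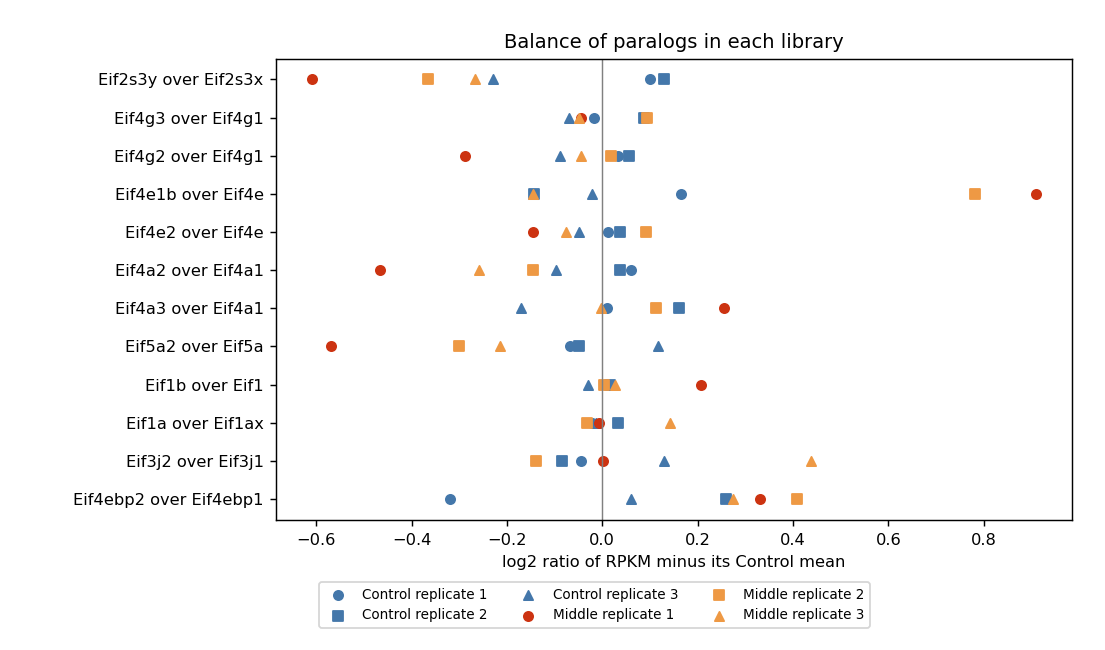
Log2 ratio of RPKM of 2 paralogs in each library, minus the mean of that log2 ratio in Control, for 12 pairs, with Control and Middle libraries as separate points. The Middle points of Eif2s3y over Eif2s3x, Eif4a2 over Eif4a1 and Eif5a2 over Eif5a lie below all Control points, those of Eif4ebp2 over Eif4ebp1 lie above, and the other 8 pairs overlap.

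The other 8 pairs overlapped. Their log2 differences were 0.079 for Eif1b over Eif1, 0.035 for Eif1a over Eif1ax, 0.10 for Eif3j2 over Eif3j1 and 0.12 for Eif4a3 over Eif4a1. They were -0.044 for Eif4e2 over Eif4e, 0.52 for Eif4e1b over Eif4e, -0.10 for Eif4g2 over Eif4g1 and 0.00073 for Eif4g3 over Eif4g1. Eif4e1b over Eif4e, with few reads of Eif4e1b, was at 0.046 with a pseudocount of 1 in the ratio and ran from 0.32 to 0.85 with 1 library left out. Without Middle replicate 1, Eif4g2 over Eif4g1 was at -0.012 and Eif1b over Eif1 at 0.015. How well reads separate a pair depends on how alike the copies are. In the coding sequences of GENCODE M21, Eif3j2 and Eif3j1 were 99.2% identical with an unbroken run of 781 shared bases, so their split is uncertain. Eif2s3y and Eif2s3x were 86.3% identical with a longest shared run of 34 bases, Eif1a and Eif1ax 85.6% with 28, and Eif4a2 and Eif4a1 77.8% with 20. The other compared pairs with a value lay between 47.1% and 81.1%, and Eif4g2 and Eif4g1 had none. Of the 70 members 21 share exon bases with another gene on either strand, 11 of them over more than 10%. The 11 are Eif4ebp3, Eif3d, Eif3j1, Eif6 (28.8%), Eif1b (26.3%), Eif5b (16.8%), Eif1ad (15.3%), Eif4e3 (14.8%), Eif4a2 (13.3%), Eif5 (12.1%) and Eif2ak1 (11.6%).

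GC content moved with the members' differences. Across the 50 tested members with a value, the Spearman correlation of the log2 fold change with GC was 0.451, as a description over genes that share these libraries. It was 0.345 over all 14003 genes with a value. The 18 members that lay higher without overlap had a median GC of 49.8%, the 8 that lay lower 42.1%, and all tested members 49.7%. When a smooth GC trend was removed from each library, the correlation over members was 0.025. The median of eIF2B was then 0.22 with 4 of 5 subunits above 0, and that of eIF3 0.21 with 10 of 13 above 0. Of the 8 members that lay lower, Eif3a was then at -0.29, Eif4ebp3 at -0.27, Eif3j1 at -0.19, Eif2s3y at -0.16 and Eif5 at -0.13. The other 3 were nearer to 0, with Eif4ebp1 at -0.064, Eif5a2 at -0.019 and Eif4a2 at -0.0022. The 18 that lay higher ran from 0.044 (Eif5a) to 0.27 (Eif3m). Since the GC correlation of every Control library lay below that of every Middle library, the GC trend and the group cannot be told apart.

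**Figure D5:**
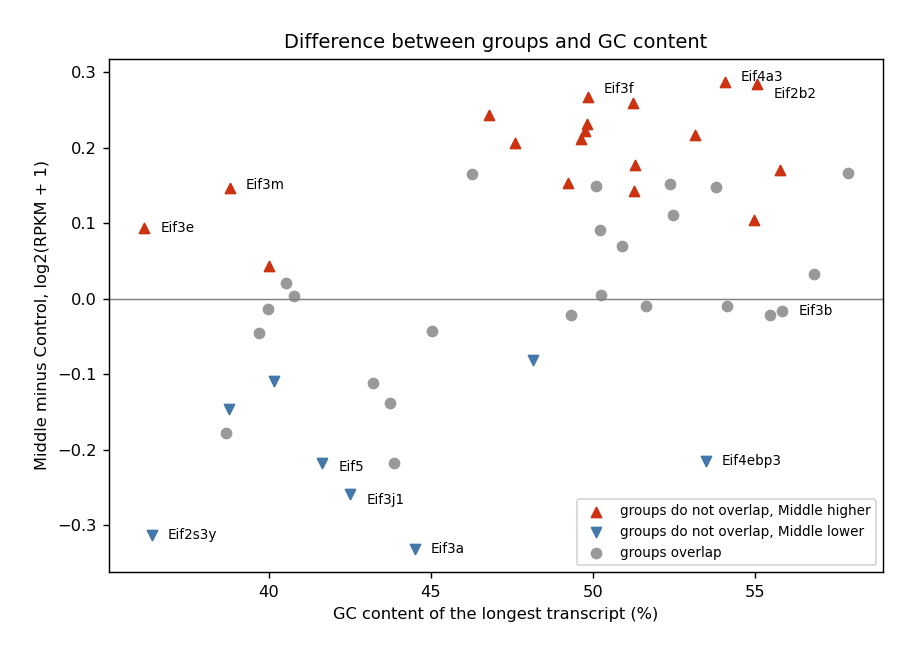
Log2 fold change of Middle over Control against the GC percentage of the longest transcript, for the 50 tested initiation factor genes with a GC value. Triangles mark genes whose groups do not overlap (up, Middle higher; down, Middle lower) and circles those whose groups overlap. Genes of low GC such as Eif3a and Eif5 lie below 0, Eif3e and Eif3m, also of low GC, lie above, and the Spearman correlation is 0.451.

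Other genes of the pathway, taken from lists that do not overlap the members, gave no call either. Of 20 cap and closed-loop genes 17 were tested, 6 above and 11 below 0 (median -0.03), with none past the adjusted threshold. This turned when Middle replicate 1 was left out, with 10 of 17 above 0 and a median of 0.02. Paip2, which inhibits poly(A)-binding protein, was at 135 ± 8.3 RPKM across the Control libraries and 116 ± 2.08 RPKM across the Middle libraries (SD over n = 3), with a limma log2 fold change of -0.22 and an adjusted p = 0.178. Mknk2, a kinase of eIF4E, was at 5.12 ± 0.279 RPKM across the Control libraries and 6.13 ± 0.232 RPKM across the Middle libraries (SD over n = 3), with a limma log2 fold change of 0.22 and an adjusted p = 0.178. Of 21 initiation partners and regulators 14 were tested, 9 above and 5 below 0 (median 0.06, and 0.10 with 8 above 0 without Middle replicate 1), and none passed. Mtif3, the mitochondrial initiation factor, was at 16.5 ± 0.242 RPKM across the Control libraries and 20.4 ± 2.5 RPKM across the Middle libraries (SD over n = 3), with a limma log2 fold change of 0.28 and an adjusted p = 0.178. Gcn1, the activator of GCN2, was at 8.23 ± 0.283 RPKM across the Control libraries and 9.46 ± 0.136 RPKM across the Middle libraries (SD over n = 3), with a limma log2 fold change of 0.18 and an adjusted p = 0.186. Dhps, the first enzyme of hypusine synthesis on eIF5A, was at 2.37 ± 0.138 RPKM across the Control libraries and 3.07 ± 0.387 RPKM across the Middle libraries (SD over n = 3), with a limma log2 fold change of 0.27 and an adjusted p = 0.184. These 3 are the partners with the smallest p, and in each the Middle mean lay above the Control mean.

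Genes of the response to eIF2 phosphorylation did not pass either. Of 14 integrated stress response genes 9 were tested, 6 above and 3 below 0 (median 0.04, and 0.07 with 5 above 0 without Middle replicate 1). Ppp1r15a, which directs a phosphatase to eIF2, was at 5.14 ± 0.214 RPKM across the Control libraries and 6.21 ± 0.725 RPKM across the Middle libraries (SD over n = 3), with a limma log2 fold change of 0.23 and an adjusted p = 0.215. Of 14 elongation and release factors 13 were tested, 11 above and 2 below 0 (median 0.07), with none past the threshold. When Middle replicate 1 was left out, 8 of 13 lay above 0 and the median was 0.03. Eef1a1, which delivers transfer RNA during elongation, was at 438 ± 1.44 RPKM across the Control libraries and 493 ± 22.3 RPKM across the Middle libraries (SD over n = 3), with a limma log2 fold change of 0.17 and an adjusted p = 0.186. Etf1, the release factor that reads stop codons, was at 48.5 ± 1.19 RPKM across the Control libraries and 41.6 ± 4.42 RPKM across the Middle libraries (SD over n = 3), with a limma log2 fold change of -0.22 and an adjusted p = 0.212, and its log2 fold change was -0.13 without Middle replicate 1.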

How the data were processed

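Messenger RNA of 6 mouse testis libraries, 3 Control and 3 Middle, was sequenced and compared. Trizol was used for extraction and an mRNA kit for the libraries, per the labels' protocols. The submitters' processing notes name fastp 0.23.0 and GRCm39. The aligner, the counter, the strand setting and the treatment of reads with several matches were not given in the sources used here. RPKM values were deposited by the authors for 38715 genes with coordinates and a gene length. Multiplied by that length, 100% of the values were whole numbers of reads within 0.001, and the reads summed to 38820385 to 58389391 per library. For a gene of 1 kb, a count of 0 allows up to 3 fragments (6 reads), or 0.103 to 0.155 RPKM, and such a limit covers counting error only.

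RPKM values were tested on the log2(RPKM + 1) scale, where fold changes of low genes are understated, with limma 3.58.1 (R 4.3.3) and a trend in the prior variance, two-sided. The test ran on 15040 genes whose mean reached 1 RPKM in Control, in Middle or in both, Benjamini-Hochberg adjustment ran over all of them, and the threshold was 0.05. Every sample was grouped by its title. GC content came from the longest GENCODE M21 transcript of the same symbol and was removed by loess (span 0.5) in an alternative. Start contexts came from the same annotation, whose build differs from that of the table, so only letters were read from it. The limma fit was also run on simulated data with known log2 differences of 0.5 and 1, which are larger than the differences of the members. Values in every library are given for the 6 higher and 6 lower tested members with the smallest p, the paralogs, the eIF2 kinases, the eIF2 subunits and the extremes in level, and up to 3 tested genes with the smallest p were eligible from each other list. The members, the lists and the tests were chosen with earlier results of these data known. Alternatives were other scalings, filters and pseudocounts, limma-voom on the recovered reads, a replicate block, removal of the GC trend and leaving out each library.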

Additional observations from a re-analysis of the deposited data

How the results depend on the processing

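No member passed the adjusted threshold under any alternative run, limma-voom on the recovered reads and a threshold of 0.1 included. With limma-voom, 17 of 59 members had an unadjusted p under 0.05, against 4266 of 23889 genes. Of the 52 tested members 40 kept their direction under every alternative that gave them a value, among them Eif1ad2 and Eif1ad6, which have no GC content and so no value with the GC trend removed. The count at an unadjusted p under 0.05, 13, ranged from 3 (without Control replicate 1) to 20 (without Middle replicate 2). Over all genes the counts under the same settings were 1444 of 15076 and 3922 of 15067, against 3116 of 15040 with every library. The median log2 fold change of the members, 0.04, was 0.0229 with median-of-ratios scaling, 0.0016 with upper-quartile scaling, 0.00396 without a filter, 0.0519 with a pseudocount of 0.01 and 0.0827 with the GC trend removed, and 0.0247 to 0.0537 with a library left out. All genes moved along with the scaling, from a median of 0.03 to 0.01 and -0.01. The causes of these changes were not tested.

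The labels do not state that replicate numbers pair the libraries. Correlations of the deviations of same-numbered libraries were -0.153, -0.119 and 0.005, and libraries did not correlate best with their own number. Deviations were taken from the mean of each small group, which constrains these correlations, so they cannot exclude a pairing. With the replicate number as a block, 8 of 52 members had an unadjusted p under 0.05, against 2267 of 15040 genes. Of all genes 0 passed the adjusted threshold with the block (8 without it). With the replicate block and the GC trend removed, the median was 0.0827.

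With all libraries, the members whose sign turned had log2 fold changes from -0.045 (Eif1ax) to 0.033 (Eif2b4), apart from Eif4g2 at -0.11. With median-of-ratios scaling Eif2s1 was at -0.0152 and Eif4b at -0.014. With upper-quartile scaling Eif2s1 was at -0.0415, Eif4b at -0.0406, Eif4e at -0.0239 and Eif2b4 at -0.0123. With the GC trend removed, with or without the block, Eif4b was at -0.00914, Eif2b4 at -0.0422, Eif1a at 0.0969 and Eif1ax at 0.069. With the GC trend removed and Middle replicate 1 left out, Eif4b was at -0.0145, Eif2b4 at -0.00218, Eif1a at 0.0818, Eif1ax at 0.0325, Eif4e2 at 0.000694, Eif4e3 at 0.0101, Eif4g2 at 0.0202 and Eif4g3 at 0.0166. With a library left out, Eif4b ranged from -0.0125 to 0.0292, Eif2s1 from -0.0296 to 0.0238, Eif4g1 from -0.0377 to 0.025, Eif4g3 from -0.0597 to 0.0315, Eif1a from -0.0779 to 0.0333, Eif4h from -0.0718 to 0.00919 and Eif4e from -0.0139 to 0.0549. Among the ratios of paralogs, Eif4g2 over Eif4g1 was at 0.0144 with the GC trend removed. With a library left out, Eif4g3 over Eif4g1 ranged from -0.0463 to 0.0442, Eif4e2 over Eif4e from -0.111 to 0.00704, Eif1a over Eif1ax from -0.0186 to 0.068 and Eif3j2 over Eif3j1 from -0.0685 to 0.219.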
